A study of Mus musculus with 8 samples.

Results

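Retinal ganglion cells are the output neurons of the retina, and 36 genes known to mark them were followed in mouse retina on postnatal day 8 (P8). A probe set of the Affymetrix array was taken as a member when the platform annotation gave it exactly 1 gene symbol and that symbol was on the list. This found 80 probe sets for 35 genes, of 45037 probe sets tested and 18193 genes with a symbol in all. The gene without a usable probe set was Rbpms2. Of the 35 genes, 17 had 1 probe set and 18 had several, up to 8 for Foxp1.

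The Z/Edn2 group held 4 arrays of Z/Edn2; Six3-Cre pups, in which Six3-Cre recombines a Cre-dependent Edn2 transgene in the developing retina. The Control group held 4 arrays of Six3-Cre pups without the Z/Edn2 allele, so that Cre was present in both groups. Carriers were told apart by LacZ activity in tail clips, which shows the allele and not the amount of Edn2 made in the retina. All pups were P8 and of mixed strain background, mainly C57BL/6 and 129, and each array pooled the retinas of 2 to 3 pups. The labels call the arrays biological replicates, and the p-values measure the spread between these pools. Values are log2 signals, and every log2 fold change is Z/Edn2 minus Control.

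Ganglion cells lie at the inner surface of the retina and send their axons through the optic nerve to the brain. POU-domain, LIM-homeodomain, EBF and Iroquois factors set their identity and subtypes, neurofilaments fill their long axons, and they signal with glutamate that is loaded into vesicles by Slc17a6. Their inner layer is fed by the superficial vessels, which spread over the retina during the first postnatal week. Several of the genes are also used by other retinal neurons, such as neurofilaments in horizontal cells. In whole retina, fewer cells of a type and less RNA per cell cannot be told apart.

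Z/Edn2 3 differed from the other arrays in technical measures. The median of its probe sets was 6.27, against 6.14 to 6.17 in the others, and the 5′ probe set of its bioD spike-in read 9.30, where the others read 11.3 to 11.6. Z/Edn2 1 and Control 1 had actin signals at the 3′ end that exceeded those at the 5′ end by 0.56 and 0.65 on the log2 scale, against 1.06 to 1.42 elsewhere. Of the 35 genes, 29 had a mean level above the median of all probe sets. So did 10998 genes outside the list, of 18193 genes in all, each taken by its brightest probe set. Since several of the 35 are also used by other retinal neurons, the count does not show ganglion cells in particular. The 6 genes below that median were Pou4f3, Irx1, Irx4, Prph, Pvalb and Chrnb3, and their differences rest on dim signals.

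Most ganglion cell genes had lower values in Z/Edn2 than in Control retina, but no probe set passed the test over all probe sets. The log2 fold changes of largest size were those of Slc17a6, Thy1, Nefm and Nefh, and without Z/Edn2 3 those of Nefm (−0.66), Thy1 (−0.63), Chrna6 (−0.53) and L1cam (−0.51). Of the 80 probe sets, 0 were lower and 0 higher by limma at an adjusted p under 0.05, a threshold that 0.0155% of all probe sets passed as lower and 0.06% as higher. At an unadjusted p under 0.05, 12 were lower, or 15.0%, against 1.17% of all probe sets, and 0 were higher, against 2.8% of all probe sets. With 1 probe set a gene, 28 of the 35 genes lay below 0 and 7 above it, and their median log2 fold change was −0.18. The median of all 18193 genes was 0.01, and 45.2% of them lay below 0. All 4 same-numbered pairs were lower in Z/Edn2 for 19 of the 35 genes, against 7.84% of all genes. Here and below, the brightest probe set stands for a gene unless another is named.

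With the replicate number as a block, 26 probe sets were lower at an unadjusted p under 0.05, against 2.78% of all probe sets. None passed the adjusted threshold, which 0.0355% of all probe sets passed as lower and 0.173% as higher. When that blocked fit ran over 1 probe set a gene, an analysis added after the data were seen, 2 of the 35 genes passed as lower, Chrna6 and Sncg, against 0.143% of all genes. The count of 12 without the block was 7 without Control 3, 7 without the pair of replicate 2, and 23 without Z/Edn2 1, Z/Edn2 3 and Control 1. The share of all probe sets was not counted in these omissions. A change in all probe sets thus cannot be told from a change in the members.

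**Figure D1:**
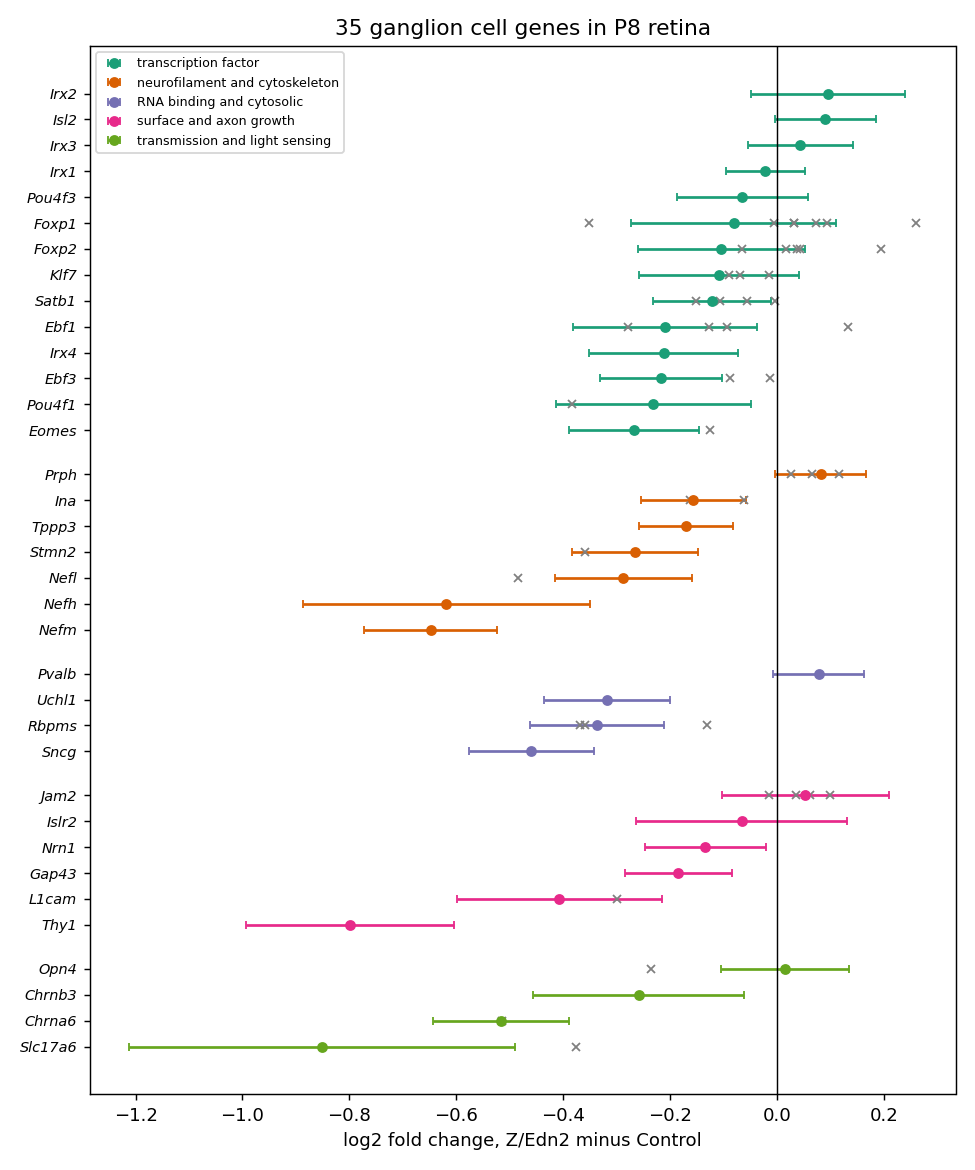
Log2 fold change (Z/Edn2 minus Control, x axis) of 35 ganglion cell genes (rows, coloured by class). Circles are the probe set with the highest mean with limma's standard error, and crosses are the other probe sets of the gene. Thy1 at −0.80 and Slc17a6 at −0.85 lie farthest left, and Isl2, Irx2, Irx3, Prph, Pvalb, Jam2 and Opn4 lie right of 0.

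With 1 probe set a gene, the transcription factors were the class with the smallest median difference. Over all probe sets, the median was −0.066 for the surface and axon growth class and −0.066 for the transcription factors. Of 14 genes 11 were negative, with a median of −0.11, and 0 had an unadjusted p under 0.05, against 1.43% of all genes with a lower value. The mean of the 14 genes was 7.10, 7.04, 7.35 and 7.24 in the Z/Edn2 arrays, against 7.25, 7.21, 7.40 and 7.26 in the Control arrays. The groups overlapped, since Z/Edn2 3 lay above 3 of the Control arrays, while each of the 4 same-numbered pairs was lower in Z/Edn2. With the replicate block 3 of the 14 factors, Eomes, Pou4f1 and Ebf3, were lower at an unadjusted p under 0.05, against 3.04% of all genes, and 0 passed.

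Pou4f1, the POU-domain factor Brn3a of most ganglion cells, had 2 probe sets. The brighter was at 7.79, 8.10, 8.55 and 8.43 in Z/Edn2 arrays, against 8.17, 8.38, 8.80 and 8.44 in Control arrays. The dimmer was at 7.35, 7.14, 7.69 and 7.44 in Z/Edn2 arrays, against 7.70, 7.59, 7.99 and 7.86 in Control arrays. Both overlapped between the groups, while each same-numbered pair was lower in Z/Edn2. Their log2 fold changes were −0.23 ± 0.183 and −0.38 ± 0.132 (SE), and neither passed by limma (adjusted p = 1.00 each without the block, 0.575 and 0.190 with it). The brighter one was at −0.09 without Z/Edn2 1 and at −0.11 without Control 3.

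Eomes, or Tbr2, a T-box factor kept by intrinsically photosensitive ganglion cells, had a log2 fold change of −0.27 ± 0.122 (SE), or −0.17 without Control 3, and its other probe set was at −0.13. Ebf3 and Ebf1, helix-loop-helix factors of ganglion cell differentiation, were at −0.22 and −0.21. For Ebf1, 4 of 5 probe sets were negative, from −0.28 to −0.09, and the dimmest was at 0.13. The 3 probe sets of Ebf3 were at −0.22 ± 0.114, −0.01 ± 0.165 and −0.09 ± 0.291 (SE each), and the dimmer ones lay within their SE of 0.

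The Iroquois genes Irx1, Irx2, Irx3 and Irx4, homeobox factors that mark subsets of retinal neurons, were at −0.02, 0.10, 0.04 and −0.21. Irx1, Irx2 and Irx4 are neighbours in one cluster on chromosome 13. Their SE were 0.073, 0.144 and 0.139, so that neither a shared nor an unlike direction could be told. Isl2, a LIM-homeodomain factor of ganglion cell subsets, was at 0.09, and Pou4f3, the related Brn3c, at −0.06. Satb1, a chromatin organizer, was at −0.12, Klf7, a zinc finger factor of axon growth, at −0.11, Foxp2 at −0.10 and Foxp1 at −0.08, the last being forkhead factors of neuronal subtypes. The 8 probe sets of Foxp1 lay between −0.35 and 0.26 and the 6 of Foxp2 between −0.10 and 0.20, on both sides of 0. The 5 of Satb1 lay between −0.15 and −0.003 and the 4 of Klf7 between −0.11 and −0.02. The direction of Isl2, Irx1, Irx2, Irx3, Pou4f3, Foxp1 and Foxp2 turned in at least 1 alternative setting.

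The neurofilament and cytoskeleton genes had 6 of 7 negative values, with a median of −0.27, and 3 were lower at an unadjusted p under 0.05, against 1.43% of all genes. Their mean was 9.26, 9.21, 9.08 and 9.25 in the Z/Edn2 arrays, against 9.39, 9.69, 9.54 and 9.37 in the Control arrays. Each Z/Edn2 array lay below each Control array.

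Nefm, the middle neurofilament subunit, had the smallest p of all members without the replicate block. With the block, probe sets of Chrna6, Sncg and Pou4f1 had smaller ones. It was at 9.95, 9.52, 9.86 and 9.95 in Z/Edn2 arrays, against 10.41, 10.65, 10.55 and 10.26 in Control arrays, without overlap. Its log2 fold change was −0.65 ± 0.125 (SE), a 1.57-fold lower signal, which limma did not call (adjusted p = 0.229 without and 0.230 with the block, and 0.107 in the fit over genes). Such a lower value without overlap was found in 0.802% of all probe sets and in 5 of the 80 probe sets here.

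Nefl, the light subunit, is the gene next to Nefm on chromosome 14. Its dimmer probe set was at 11.07, 10.56, 10.79 and 10.72 in Z/Edn2 arrays, against 11.20, 11.40, 11.41 and 11.08 in Control arrays. These values did not overlap, though Z/Edn2 1 and Control 4 lay close together. The log2 fold change was −0.49 ± 0.126 (SE), and it did not pass (limma adjusted p = 0.693). The brighter probe set was at 11.01, 11.18, 10.99 and 10.98 in Z/Edn2 arrays and at 11.20, 11.65, 11.40 and 11.06 in Control arrays. It overlapped only through Z/Edn2 2 and Control 4, with a log2 fold change of −0.29 ± 0.128 (SE), or −0.18 without Control 2.

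Nefh, the heavy subunit of mature large axons, was at 8.16, 8.48, 7.47 and 8.57 in Z/Edn2 arrays, against 8.32, 9.35, 8.77 and 8.72 in Control arrays. Z/Edn2 3 was the lowest of the 8 and Control 2 the highest, and the groups overlapped through Control 1. The log2 fold change was −0.62 ± 0.269 (SE; limma adjusted p = 1.00), and −0.38 without Z/Edn2 3.

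Stmn2, a microtubule-regulating phosphoprotein of growing axons, was at 11.04, 10.62, 10.55 and 10.65 in Z/Edn2 arrays, against 11.12, 10.96, 10.98 and 10.87 in Control arrays. Apart from Z/Edn2 1, the Z/Edn2 arrays lay below every Control array. Its log2 fold change was −0.27 ± 0.118 (SE; limma adjusted p = 1.00), and that of its other probe set −0.36 ± 0.183 (SE). Tppp3, a tubulin-binding protein, was at −0.17. Ina, the alpha-internexin that forms filaments with the neurofilament subunits, was at −0.16, with its 3 probe sets between −0.16 and −0.06. Prph, the intermediate filament peripherin of peripheral nerves and some ganglion cells, had 4 dim probe sets between 0.03 and 0.12.

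**Figure D2:**
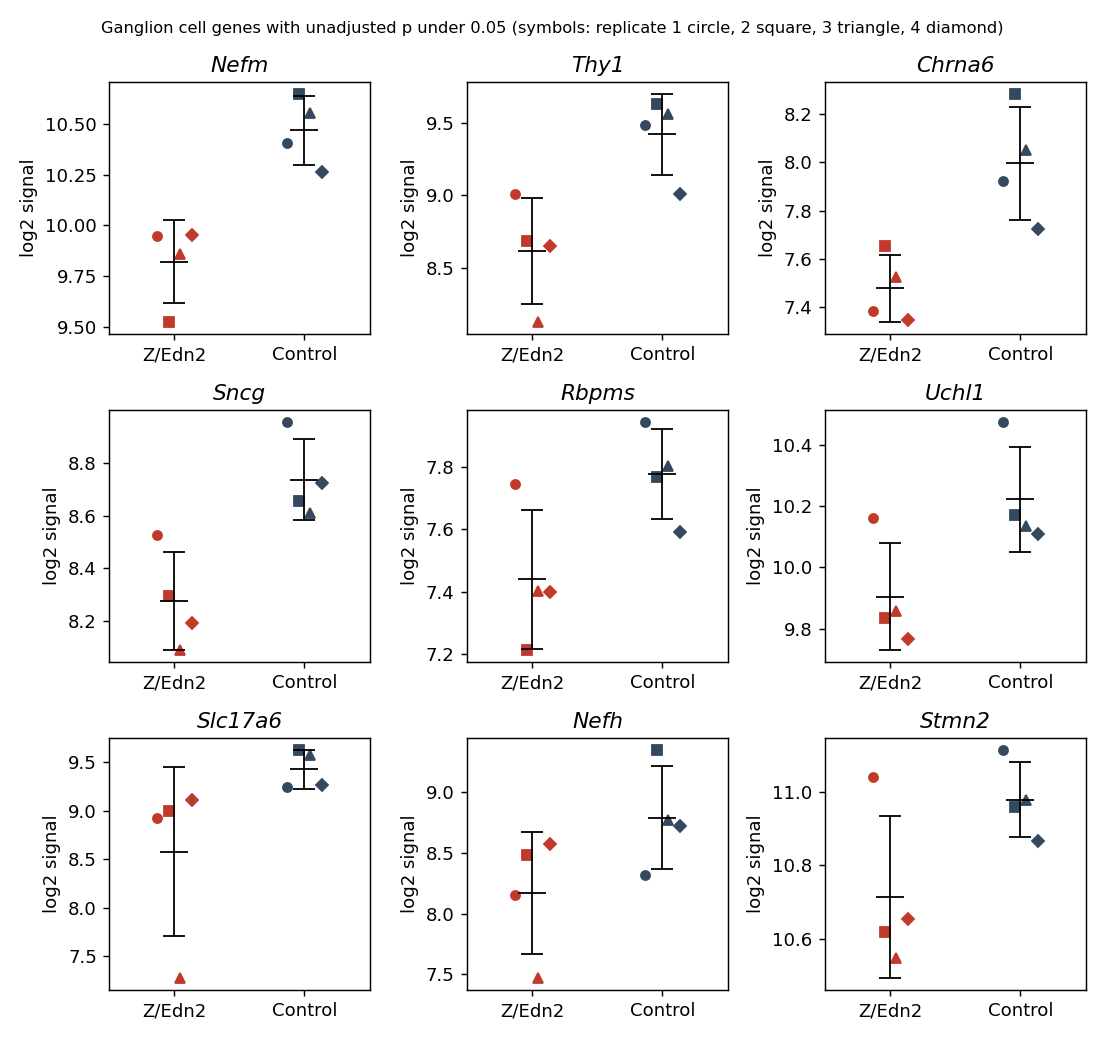
Log2 signal (y axis, scaled for each gene) of the 9 ganglion cell genes whose brightest probe set had an unadjusted p under 0.05, in 4 Z/Edn2 and 4 Control arrays. Symbols give the replicate number, and bars are the mean ± SD. Nefm, Chrna6, Sncg and Slc17a6 show no overlap between the groups, and Z/Edn2 3 is far below the others for Slc17a6.

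Among the RNA-binding and cytosolic genes, 3 of 4 were lower at an unadjusted p under 0.05, against 1.43% of all genes, and the median log2 fold change was −0.33. Their mean was 8.03, 7.78, 7.80 and 7.74 in the Z/Edn2 arrays, against 8.27, 8.07, 8.05 and 7.999 in the Control arrays. Z/Edn2 1, at 8.03, lay above Control 4, and the other Z/Edn2 arrays lay below all Control arrays.

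Sncg, gamma-synuclein, a small cytosolic protein enriched in ganglion cells, was at 8.53, 8.29, 8.09 and 8.19 in Z/Edn2 arrays, against 8.96, 8.66, 8.61 and 8.72 in Control arrays. The groups did not overlap, and the same-numbered pairs differed by −0.43, −0.36, −0.52 and −0.53. The log2 fold change of −0.46 ± 0.117 (SE), a 1.37-fold lower signal, was not called by limma (adjusted p = 0.678 without and 0.0958 with the block). In the blocked fit over genes it passed (limma adjusted p = 0.0357).

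Uchl1, the neuronal ubiquitin hydrolase PGP9.5, was at 10.16, 9.84, 9.86 and 9.77 in Z/Edn2 arrays, against 10.47, 10.17, 10.13 and 10.11 in Control arrays. Z/Edn2 1 reached into the Control values, while the 4 pair differences, −0.32, −0.33, −0.28 and −0.34, were nearly equal. Its log2 fold change was −0.32 ± 0.118 (SE; limma adjusted p = 1.00 without and 0.296 with the block).

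Rbpms, an RNA-binding protein used as a general ganglion cell marker, was at 7.75, 7.21, 7.40 and 7.40 in Z/Edn2 arrays, against 7.95, 7.77, 7.80 and 7.59 in Control arrays. As for Uchl1, Z/Edn2 1 alone reached into the Control values. The log2 fold change was −0.34 ± 0.125 (SE; limma adjusted p = 1.00). The other 3 probe sets were at −0.36, −0.37 and −0.13. Pvalb, the calcium buffer parvalbumin, was dim and at 0.08.

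Within groups, Sncg and Uchl1 varied together over the 8 arrays, with a correlation of 0.88 between their deviations from the group means. Over the 36 pairings of the 9 genes with an unadjusted p under 0.05 this correlation had a median of 0.34 and a range of −0.39 to 0.90. Z/Edn2 1 and Control 1 had the highest Sncg and Uchl1 values of their groups and the smallest actin 3′ to 5′ differences. With the actin difference as a covariate the log2 fold changes were −0.45 for Sncg and −0.30 for Uchl1. The promoters of both genes and of Slc17a6, at −0.42 without Z/Edn2 3, are shown. Of the 9 genes with an unadjusted p under 0.05, only these had a promoter window to search. The RefSeq windows of GRCm38.p6 run from 250 bases before to 50 bases after the start. Motif matches are in capitals. The Sncg window is chr14:34374620-34374919 on the minus strand, that of Uchl1 is chr5:66675871-66676170 on the plus strand, and that of Slc17a6 is chr7:51621580-51621879 on the plus strand. A second Slc17a6 window, chr7:51624387-51624686, is not shown and held no match.
Sncg: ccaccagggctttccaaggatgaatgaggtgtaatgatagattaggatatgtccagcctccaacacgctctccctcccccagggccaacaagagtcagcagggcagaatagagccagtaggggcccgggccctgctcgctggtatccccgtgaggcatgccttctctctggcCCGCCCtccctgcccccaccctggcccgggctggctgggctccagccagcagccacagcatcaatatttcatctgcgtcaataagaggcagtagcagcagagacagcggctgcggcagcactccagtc
Uchl1: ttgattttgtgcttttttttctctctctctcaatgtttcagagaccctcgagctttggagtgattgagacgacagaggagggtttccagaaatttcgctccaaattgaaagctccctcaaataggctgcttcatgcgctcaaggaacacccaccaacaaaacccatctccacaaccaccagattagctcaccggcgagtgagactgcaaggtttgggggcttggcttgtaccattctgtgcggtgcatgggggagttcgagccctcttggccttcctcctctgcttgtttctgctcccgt
Slc17a6: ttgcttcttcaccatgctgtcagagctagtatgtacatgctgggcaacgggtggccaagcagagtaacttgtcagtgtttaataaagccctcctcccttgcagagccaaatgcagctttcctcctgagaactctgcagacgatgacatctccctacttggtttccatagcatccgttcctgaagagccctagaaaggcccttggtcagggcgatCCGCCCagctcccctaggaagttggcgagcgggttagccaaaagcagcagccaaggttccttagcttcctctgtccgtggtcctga

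The motifs searched on both strands were the TATA box TATAAA, the GC box GGGCGG, the CCAAT box CCAAT, the palindromic EBF motif and the Brn3 core TCATTAA. The capitals in the Sncg and Slc17a6 windows are 1 GC box each, and the Uchl1 window held no match, so no 2 motifs overlapped there. Windows on chromosome 18, which holds Pou4f3, were left out for the members. The rest were 33 windows for 21 of the 36 genes. Other members had no window to search, among them Nefl, Nefm, Nefh, Stmn2, Rbpms, Thy1, Chrna6 and Chrnb3. The shares below do not cover these genes. The background of all windows was not filtered by chromosome. GC boxes were in 51.5% of the 33 windows, against 35.7% of all 32851 windows, CCAAT boxes in 27.3%, against 37.4%, and TATA boxes in 3.03%, against 13.6%. Some genes had several windows, and some of these overlapped, as for Satb1 and L1cam, so that a site could be counted more than once. Rbpms2, which had no usable probe set, was among the 21 genes. The EBF and Brn3 letters were in 0 of the 33 windows, against 0.904% and 3.23% of all windows.

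Of the 6 surface and axon growth genes, 5 had negative log2 fold changes, with a median of −0.16. Their mean was 8.99, 8.61, 8.83 and 8.78 in the Z/Edn2 arrays, against 9.04, 9.10, 9.17 and 8.94 in the Control arrays. Only Z/Edn2 1 reached into the Control range.

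Thy1, a glycoprotein anchored on the ganglion cell surface, was at 9.01, 8.69, 8.13 and 8.65 in Z/Edn2 arrays, against 9.48, 9.63, 9.56 and 9.01 in Control arrays. The groups met at Z/Edn2 1 and Control 4, both at 9.01. Its log2 fold change was −0.80 ± 0.194 (SE), a 1.74-fold lower signal, which limma did not call (adjusted p = 0.596 without and 0.250 with the block). Without Z/Edn2 3, its lowest array, the log2 fold change was −0.63.

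L1cam, an adhesion molecule of axon bundles, had a log2 fold change of −0.41 ± 0.191 (SE) that rested largely on Z/Edn2 2. That array was at 8.60, against 9.38 to 9.57 in the other Z/Edn2 arrays and 9.56 to 9.74 in Control arrays. Without it the log2 fold change was −0.19. The dimmer probe set of L1cam was at −0.30 ± 0.208 (SE), with all 4 pairs lower. Gap43, a growth cone protein, was at −0.18, and Nrn1, neuritin, a neurite growth factor, at −0.13. Islr2, or Linx, a leucine-rich membrane protein of axon guidance, was at −0.07, and Jam2, a junctional adhesion molecule that marks a ganglion cell type, at 0.05. The 5 probe sets of Jam2 lay between −0.02 and 0.10. The direction of Islr2 and of Jam2 turned in some alternative settings.

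Of the 4 genes of transmission and light sensing, 3 were negative, with a median log2 fold change of −0.39. Their mean was 7.17, 7.19, 6.83 and 7.01 in the Z/Edn2 arrays, against 7.49, 7.56, 7.48 and 7.28 in the Control arrays, without overlap.

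Chrna6, the alpha6 subunit of nicotinic acetylcholine receptors, was at 7.39, 7.66, 7.52 and 7.35 in Z/Edn2 arrays, against 7.92, 8.28, 8.05 and 7.72 in Control arrays. The groups did not overlap, and each pair was lower, by 0.38 to 0.63 in size. The log2 fold change was −0.52 ± 0.127 (SE), a 1.43-fold lower signal, which limma did not call (adjusted p = 0.631 without and 0.0688 with the block). In the blocked fit over genes it passed (limma adjusted p = 0.0270). Its dimmer probe set was at −0.51 ± 0.185 (SE), with 7.02, 6.91, 7.08 and 6.34 in Z/Edn2 arrays against 7.53, 7.64, 7.22 and 7.04 in Control arrays. Chrnb3, the partner subunit beta3 and the neighbouring gene on chromosome 8, was dim and at −0.26 ± 0.197 (SE), with all 4 pairs lower.

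Slc17a6, the vesicular glutamate transporter VGLUT2 of ganglion cells, was at 8.93, 8.99, 7.27 and 9.11 in Z/Edn2 arrays, against 9.24, 9.63, 9.57 and 9.27 in Control arrays. The groups did not overlap, and Z/Edn2 3 lay far below all others. The log2 fold change was −0.85 ± 0.361 (SE; limma adjusted p = 1.00) and was −0.42 without Z/Edn2 3. Its dimmer probe set had Z/Edn2 3 at 7.54, inside the Control range of 7.44 to 8.14, and a log2 fold change of −0.38 ± 0.227 (SE). Opn4, melanopsin, the photopigment of intrinsically photosensitive ganglion cells, was at 0.02 ± 0.120 (SE), while its dimmer probe set was at −0.24 ± 0.106 (SE) with all 4 pairs lower. The direction of the brighter one turned in 9 of 24 alternative settings.

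**Figure D3:**
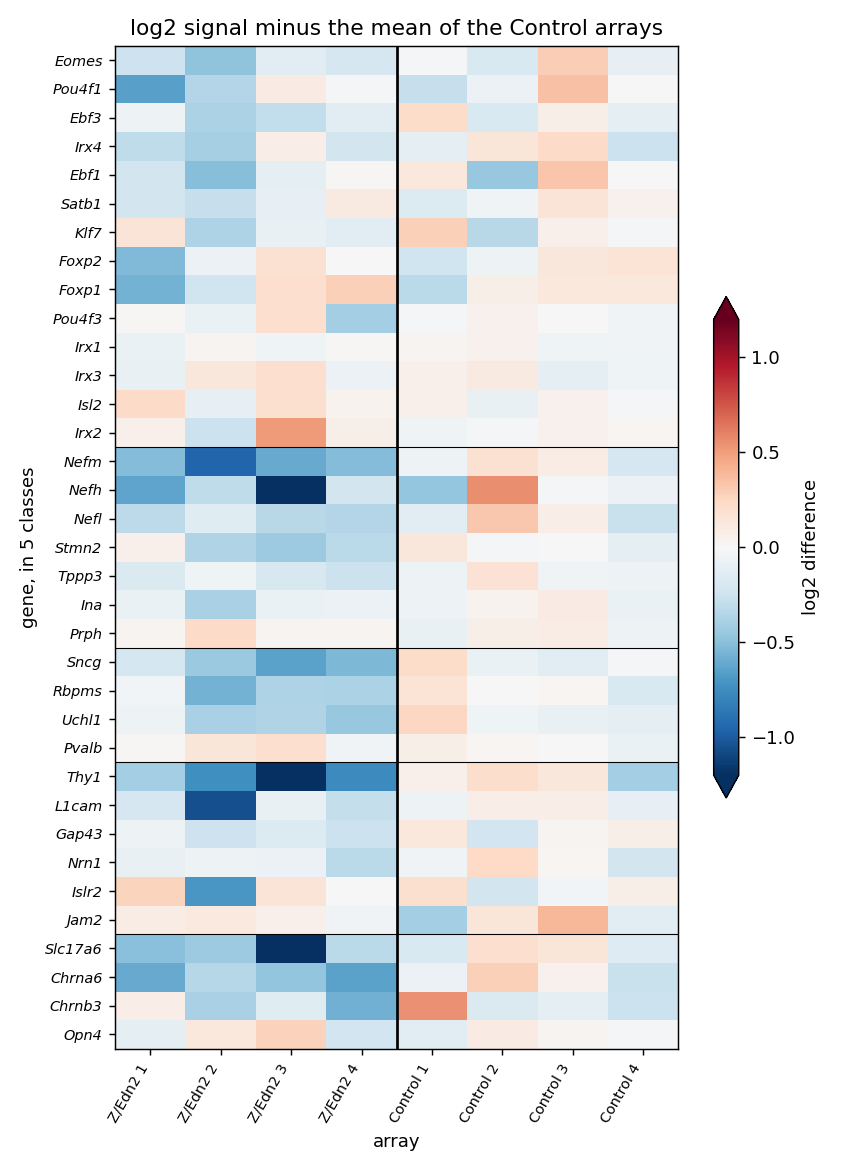
Log2 signal of 35 ganglion cell genes (rows, in 5 classes from transcription factors at the top to transmission genes at the bottom) minus the mean of the Control arrays, in 8 arrays (columns). Blue is below and red above that mean, with the scale cut at 1.2 in size. Nefm, Thy1 and Chrna6 are blue in all 4 Z/Edn2 arrays, and the transcription factor rows are mixed.

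In a further list of 35 ganglion cell genes, 32 were measured, 23 were negative and the median log2 fold change was −0.13. By limma 0 passed, 6 were lower and 1 higher at an unadjusted p under 0.05, shares to be read against 1.43% and 3.18% of all genes. The 3 smallest p were those of Stmn3, a stathmin of axons, at −0.30 ± 0.083, Atoh7, the factor that starts ganglion cell formation, at 0.29 ± 0.086, and Calb2, calretinin, at −0.42 ± 0.140 (SE each). Calb2 is also expressed by amacrine cells. A list of 18 genes induced by axon injury or linked to neuronal death had 16 measured genes and a median of 0.14. Of these 0 passed by limma, and 5 were higher and 1 lower at an unadjusted p under 0.05. Sprr1a, a small proline-rich protein of injured neurons, was dim, averaging 4.57 in Z/Edn2 and 4.28 in Control arrays. Its log2 fold change was 0.30 ± 0.080. Atf3, a stress-induced factor, was at 0.31 ± 0.110, and Csrp3, a LIM-domain protein, at −0.37 ± 0.107 (SE each). In Z/Edn2 and Control arrays Atf3 averaged 5.93 and 5.62, and Csrp3 5.94 and 6.31. These levels were near or below the median of all probe sets. The other 3 higher genes were named after their values were seen. They were Lgals3, a galectin, at 0.94 ± 0.342, Tnfrsf12a, the Fn14 receptor, at 0.30 ± 0.117, and Hrk, a proapoptotic BH3-only protein, at 0.22 ± 0.082 (SE each). Lgals3 averaged 6.22 in Z/Edn2 arrays, with an SD of 0.80, and 5.28 in Control arrays, and its groups overlapped.

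Marker lists of other cells were measured on the same arrays. By limma, 1.43% of all genes were lower and 3.18% higher at an unadjusted p under 0.05. At the adjusted threshold 0.0155% of all probe sets passed as lower and 0.06% as higher, or 0.0355% and 0.173% with the replicate block. The counts in these short lists are to be read against these shares. The mean level of 6 measured astrocyte genes was 7.43 to 7.59 in Z/Edn2 arrays, against 6.92 to 7.38 in Control arrays. Their median log2 fold change was 0.47, with 5 positive values and 4 higher at an unadjusted p under 0.05. Of the astrocyte genes 0 passed by limma without the replicate block and 1, Igfbp5, passed as higher with it (adjusted p = 0.0305). The mean level of 12 endothelial genes was 5.93 to 6.43 in Z/Edn2 arrays, against 6.45 to 6.66 in Control arrays. Their median log2 fold change was −0.23, against −0.18 over the 35 ganglion cell genes, and 9 of the 12 were negative. At an unadjusted p under 0.05, 4 were lower and 0 higher, and 1 of them, Tek, fell by limma at the adjusted threshold. With the replicate block Ptprb passed as lower too (limma adjusted p = 0.0560 without and 0.0367 with the block). The 9 measured oligodendrocyte genes were all positive, with a median log2 fold change of 0.08, and the mean level was 5.71 to 5.85 in Z/Edn2 arrays, against 5.60 to 5.67 in Control arrays. The part of these cells in the ganglion cell values was not tested. For the other neurons the median log2 fold change was −0.02 over 15 amacrine, −0.04 over 7 horizontal, −0.05 over 12 bipolar, −0.12 over 12 rod, 11 of them negative, and 0.02 over 10 cone genes, and 0 of these genes passed by limma, with 3 amacrine genes lower at an unadjusted p under 0.05. It was −0.11 over 14 Mueller glia, 11 of them negative, −0.06 over 10 microglia, 0.09 over 8 pericyte, −0.06 over 10 pigment epithelium, 0.12 over 8 lens and 0.05 over 4 erythroid genes, also with 0 passing without the block. With it, 1 Mueller gene, Abca8a, passed as lower (limma adjusted p = 0.0469). At an unadjusted p under 0.05, 2 Mueller genes were higher and 2 lower, 1 microglia gene higher and 2 lower, and 1 pericyte and 1 lens gene higher.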

How the data were processed

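Total RNA of pooled P8 retinas was hybridised to Affymetrix mouse arrays, 1 array a pool. The log2 signals were used as deposited, and the authors had summarised them by RMA, per the submitters' processing notes, which give no version. The authors' deposited comparison holds log2 fold changes, a signed fold change used here as a score with no further use, and unadjusted p-values from a test not given in the sources used here. Its log2 fold changes matched the differences of group means, Z/Edn2 minus Control, to within 4.9e-08. Control probe sets (64 of 45101) were left out, and of the rest 34945 had 1 symbol, 932 several and 9160 none.

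All 45037 probe sets were fitted with limma 3.58.1 in R 4.3.3 (lmFit and eBayes, two-sided), with Benjamini-Hochberg adjustment over all of them and a threshold of 0.05, without a filter. The script was tested on simulated data. Same-numbered arrays had correlations of their deviations from the group means of 0.78, 0.40, 0.17 and 0.31. All exceed 0.1, the limit set for pairing, and the replicate block was fitted too; the labels do not say what a number shares. Control 3 correlated with Z/Edn2 4 at 0.35 and with Z/Edn2 2 at 0.169, both above its own pair at 0.166. The limit of 0.1 was thus also passed by some arrays with unlike numbers. Other alternatives were a fit over genes, probe set means, a filter on dim probe sets, trend and robust, array weights, other scalings, the actin covariate and omission of arrays or pairs. Those added after seeing the data were the blocked fit over genes, the omission of 3 arrays and the authors' deposited p-values. The number of arrays limits the precision. Every member was named, and values in every array were given where a probe set had an unadjusted p under 0.05, passed with the block or had no overlap. The members and lists were chosen with earlier results of these data known.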

Additional observations from a re-analysis of the deposited data

Results flagged for a closer look

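For each of the 80 probe sets the extreme array of each group of 4 was set against its neighbours, which made 160 such groups. In 17 the gap of the extreme array to the next took up most of the range, past Dixon's 95% critical value, where chance gives about 1 in 20 groups. Each value below is that of 1 probe set, and Foxp1 and Foxp2 appear with 2 each. Control 1 was high for Ebf3 (9.38, others 8.77 to 8.85), Stmn2 (10.60, others 10.03 to 10.12), Rbpms (7.99, others 7.45 to 7.52) and Uchl1 (10.47, others 10.11 to 10.17). That array was low for Foxp1 (7.75, others 8.14 to 8.19) and Foxp2 (2.65, others 2.83 to 2.87). Z/Edn2 2 was low for Ebf1 (6.85, others 7.25 to 7.32), Foxp1 (5.30, others 5.69 to 5.74) and Ina (10.48, others 10.79 to 10.80), and high for Nefl (11.18, others 10.98 to 11.01) and Prph (5.93, others 5.74 each). Z/Edn2 3 was low for Slc17a6 (7.27, others 8.93 to 9.11) and high for Klf7 (8.47, others 7.56 to 7.63). Z/Edn2 4 was low for Nrn1 (8.12, others 8.36 to 8.38). Of the Control arrays, Control 4 was low for Foxp2 (4.30, others 4.38 each), Control 2 high for Tppp3 (8.51, others 8.27 to 8.30) and Control 3 low for Jam2 (5.82, others 5.98 to 6.00). The cause of these values was not tested.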

How the results depend on the processing

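In 24 alternative settings 0 member probe sets passed as higher, and 0 as lower except in the replicate block over 1 probe set a gene, where 2 passed (Chrna6 and Sncg). The replicate block over probe sets changed no call of a member. The count of lower probe sets at an unadjusted p under 0.05, 12 as reported, was 26 with the replicate block, 19 with the actin covariate, 23 without the 3 arrays that stand apart, and 7 to 18 over the omissions of an array or a pair. The count of higher ones, 0 as reported, was 0 to 1 over these omissions. Apart from the replicate block, the share of all probe sets was not counted in these settings, so no background stands beside these counts. The median log2 fold change over members, −0.18, was −0.24 without the 3 arrays that stand apart. Of the 35 genes, 25 kept their direction in every setting they could be fitted in, and 10 turned in at least 1. Without the 3 arrays, Isl2 was at −0.0093, Irx1 at 0.035, Irx2 at −0.11, Jam2 at −0.10 and Opn4 at −0.095. With array weights Irx1 was at 0.0099, Jam2 at −0.018 and Opn4 at −0.044. As the mean of probe sets Foxp1 was at 0.0070, Foxp2 at 0.021 and Opn4 at −0.11. With arrays centred on their median Opn4 was at −0.014, and quantile normalized again at −0.015. Over the omissions, Pou4f3 lay between −0.15 and 0.048, Irx1 between −0.045 and 0.0099, Irx2 between −0.045 and 0.21, Irx3 between −0.046 and 0.11, Foxp1 between −0.20 and 0.082, Foxp2 between −0.20 and 0.038, Islr2 between −0.18 and 0.14, Jam2 between −0.092 and 0.19, and Opn4 between −0.072 and 0.099. The cause of these changes was not tested. Probe sets of dim genes, 6 of 35, were left out by the filter on level.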

Other observations

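After removal of the group means, the 5 genes outside the list whose values over the 8 arrays followed the mean of the 35 ganglion cell genes most closely were Cep170b, Arvcf, Jak1, Cd47 and Nsun4, with Pearson correlations of 0.97 to 0.96. They were the highest of 10998 genes above the median level. Their log2 fold changes lay between −0.07 and 0.02, and none passed by limma (adjusted p = 1.00 each). The correlations run over the same 8 arrays, whose RNA quality measures differed.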
